A study of Mus musculus with 8 samples.

Results

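The genes described here are 9 cytokines and secreted effector factors of T cells: Ifng, Il2, Il10, Il21, Il16, Csf1, Csf2, Spp1 and Areg. They were taken by name from a table of 20029 genes, and all 9 are in it. RNA-seq libraries came from tumour-infiltrating CD8+ T cells of 4 Pglyrp1 knockout (KO) mice of the strain B6.129S4-Pglyrp1tm1.1Lky/J and of 4 wild-type (WT) C57BL/6J mice. MC38-OVA, a colon tumour line of mouse origin carrying the model antigen ovalbumin, was grown in all 8 mice under the skin of the right flank. From each tumour 1000 living cells that stained for CD45, TCRβ and CD8 went into 1 library. Libraries were full-length, by a modified SMART-Seq2 protocol. The labels give neither age, sex nor time of tumour growth. KO libraries are numbered 1 to 4 and WT libraries 6 to 9, 1 library per mouse.

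Interferon gamma, the product of Ifng, is the main macrophage-activating cytokine of CD8+ T cells. It binds IFNGR1 and IFNGR2, and signals through JAK1 and JAK2 then switch on guanylate-binding proteins, antigen presentation genes and Cd274 (PD-L1). IL-2 and IL-21 are growth and differentiation factors of T cells, IL-10 restrains inflammation, and pro-IL-16 is stored in resting lymphocytes and cut into a ligand of CD4. CSF1 and CSF2 (GM-CSF) act on macrophages and granulocytes, SPP1 (osteopontin) binds CD44 and integrins, and AREG (amphiregulin) is a ligand of the EGF receptor.

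Column sums of the deposited table ran from 2223162 to 3342847, with 11935 to 13300 genes above 0. Values were brought to 1000000 per library and are called TPM here. Whether the authors divided by transcript length is not known, so the same gene is compared between libraries. Every KO library listed the deleted gene Pglyrp1 at 0, where WT libraries had 173 ± 42.5 TPM (SD, n = 4; log2 difference -7.41, limma adjusted p = 2.93e-07). All 10 CD8 T cell identity genes, among them Cd3e and Cd8a, were above 0 in every library, with 6052 to 8346 TPM in sum. KO 3 and KO 4 had higher levels of 19 of 22 myeloid markers than any other library, as of 14.2% of all genes tested. The summed myeloid level was 5278 TPM in KO 3 and 8443 in KO 4, 290 and 370 in KO 2 and KO 1, and 148 to 470 in WT libraries. Emr1 and Mmp12 were listed at 0 in all WT libraries. Fewer cells of a type and less RNA per cell cannot be told apart in such bulk libraries.

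The 9 members differ in a sequence feature of their transcripts, the AU-rich pentamer ATTTA, which in 3′ untranslated regions (UTRs) binds proteins such as the product of Zfp36 that speed mRNA decay. In the longest annotated 3′ UTR of 20894 genes, the median density of the pentamer was 1.24 per 1000 bases, and 6.16% of genes had at least 1 pair of pentamers sharing a base. Csf2 held 9 pentamers in 317 bases (28.4 per 1000 bases), Areg 4 in 253 (15.8), Il2 7 in 581 (12.0), Ifng 6 in 631 (9.51) and Il10 6 in 706 (8.50). Each of these 5 densities exceeded that of at least 98.1% of genes. Spp1 (4.63), Il21 (3.49) and Csf1 (1.89) were lower, and Il16 held no pentamer in 1064 bases. The stretches of 30 bases richest in the pentamer are shown for the 4 densest members, 5′ to 3′ from the GENCODE transcripts, with pentamers in capitals.
Csf2: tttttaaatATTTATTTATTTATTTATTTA
Areg: ataATTTATTTAatATTTAagtgttATTTA
Il2: ctATTTATTTAaatATTTAactttaATTTA
Ifng: aacctATTTAttaatATTTAaaactATTTA
These are descriptions of the annotated transcripts, and mRNA decay was not measured.

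**Figure D1:**
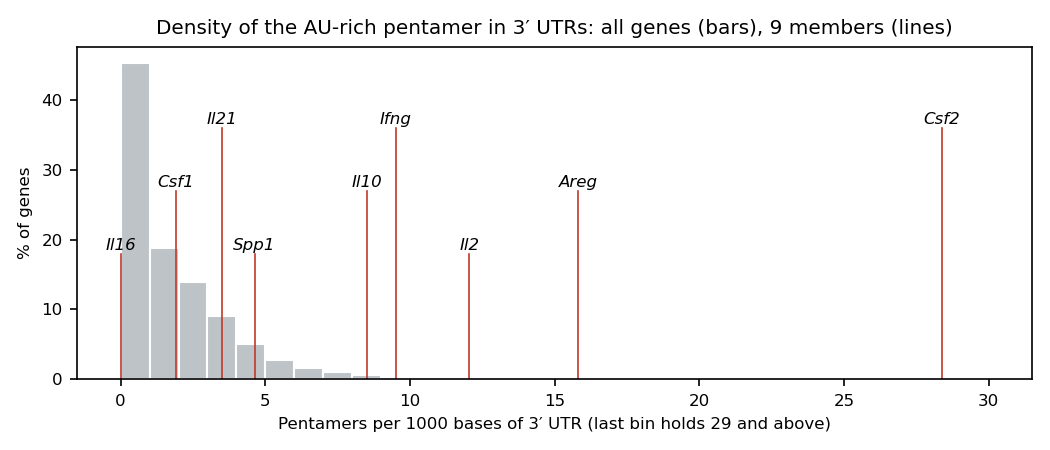
Density of the pentamer ATTTA per 1000 bases of 3′ UTR for 20894 genes (grey bars, % of genes per bin) and the 9 members (red lines, heights staggered for the labels). Csf2 lies at 28.4, Areg at 15.8, Il2 at 12.0, Ifng at 9.51 and Il16 at 0.

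Ifng (ENSMUSG00000055170, chromosome 10, 118441046 to 118445892, plus strand, mm10) was above 0 in all 8 libraries. KO 1 to 4 had 221, 133, 234 and 93.8 TPM. WT 6 to 9 had 15.4, 108, 53.1 and 20.5 TPM. WT 6 and WT 9 were the lowest of the 8, and the groups overlapped because WT 7 stood above KO 4. KO averaged 171 ± 67.9 TPM and WT 49.1 ± 42.4 TPM (SD, n = 4). The log2 difference was 2.08 (SE 0.57, 95% interval 0.81 to 3.36), with an unadjusted limma p of 0.00480. It did not pass after adjustment over 10732 genes (limma adjusted p = 0.395; two-sided exact permutation p = 0.0571). The comparison called 3 of 10732 genes (0.0280%), 2 higher (0.0186%) and 1 lower in KO (0.00932%), and 0 of the 6 members tested. At an unadjusted limma p under 0.05, Ifng and Areg were higher and Il16 lower in KO, where 6.01% of all genes tested were higher and 3.07% lower (9.08% in either direction). These shares come from 645 higher and 329 lower genes, which became 565 and 535 with quantile normalization and 1271 and 128 with scaling to T cell genes.

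The Ifng difference was 1.07 without WT 6 and WT 9, 2.19 without KO 3 and KO 4, and 1.17 without all 4 of these. WT 6 and WT 9 had lower summed CD8 identity genes, 6229 and 6222 TPM, than WT 7 and WT 8 (8242 and 8346), and KO libraries had 6052 to 6851. They also had higher B cell markers, 51.2 and 52.3 TPM in sum, where the other 6 libraries had 6.05 to 20.8. Natural killer cell markers summed to 238 to 2684 TPM in KO, mostly Tyrobp and Fcer1g, and to 82.6 to 114 in WT libraries. Cd4 was higher in every KO than in every WT library, as were 2.62% of all genes tested. The part of these values in the Ifng level was not tested. When Ifng was divided by the geometric mean of Cd3d, Cd3e, Cd3g, Cd8a and Cd8b1, it was 26.9, 15.8, 28.9 and 12.0 per 100 in KO 1 to 4. In WT 6 to 9 it was 2.04, 10.5, 5.06 and 2.66 per 100. The divisor itself differed, at 783 TPM in KO 4 and 1021 in WT 7. Among its 5 genes, Cd8b1 was lower in every KO library (1039 to 1329 TPM) than in every WT library (1340 to 1728), as were 2.40% of all genes tested. On this ratio the groups did not overlap (log2 difference 2.25; two-sided exact permutation p = 0.0286, unadjusted and the smallest that 70 assignments allow), with KO 4 and WT 7 close to each other. On the same ratio, 6.78% of all genes tested had groups apart with KO higher and 0.867% with KO lower.

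**Figure D2:**
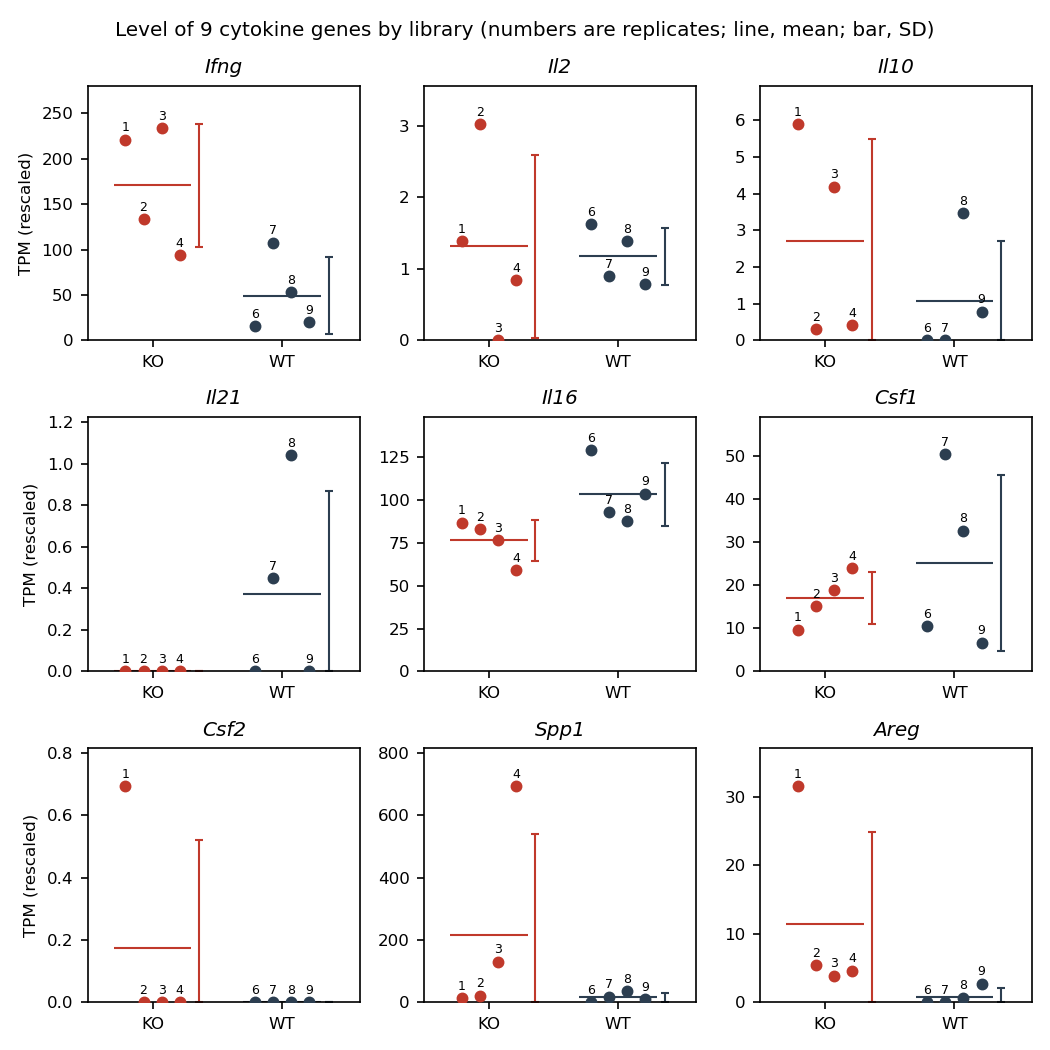
Level of each of the 9 members (TPM, linear axis from 0, own scale per panel) in 4 KO (red) and 4 WT (dark) libraries, numbered by replicate. Lines are means and bars are SD, drawn down to 0 at most. Il16 and Areg have groups that do not overlap, Spp1 is led by KO 4 at 694 TPM, and Il21 and Csf2 are at or near 0.

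The promoters of Ifng, Areg and Il2 are shown because the first pair had the smallest p among the members and Il2 was near the floor. Each run is the 250 bases before the start of the gene, 5′ to 3′, from RefSeq (GRCm38.p6), with matches in capitals. Motifs were searched on both strands. The core promoter box bound by TBP was searched as TATAAA. The core of NFAT sites was searched as GGAAA and the AP-1 site as TGANTCA. For T-box factors the letters were GGTGTGA, and for STAT factors TTCNNNGAA.
Ifng, chr10:118440796-118441045, strand +: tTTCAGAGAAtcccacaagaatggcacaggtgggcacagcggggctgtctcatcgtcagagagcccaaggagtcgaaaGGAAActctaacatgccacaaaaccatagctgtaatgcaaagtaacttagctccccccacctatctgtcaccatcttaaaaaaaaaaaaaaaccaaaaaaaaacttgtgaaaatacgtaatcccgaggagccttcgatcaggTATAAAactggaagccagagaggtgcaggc
Areg, chr5:91139349-91139598, strand +: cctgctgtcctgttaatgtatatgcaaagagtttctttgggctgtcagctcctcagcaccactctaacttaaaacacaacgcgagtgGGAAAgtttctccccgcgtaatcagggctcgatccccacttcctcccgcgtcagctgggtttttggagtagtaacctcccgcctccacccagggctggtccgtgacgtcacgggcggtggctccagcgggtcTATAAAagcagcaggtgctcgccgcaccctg
Il2, chr3:37125955-37126204, strand -: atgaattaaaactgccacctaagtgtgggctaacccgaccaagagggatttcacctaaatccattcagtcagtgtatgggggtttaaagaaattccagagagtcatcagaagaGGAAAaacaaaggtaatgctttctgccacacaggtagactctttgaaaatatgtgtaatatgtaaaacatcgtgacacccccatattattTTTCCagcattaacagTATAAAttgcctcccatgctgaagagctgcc
TATAAA begins 30 bases before the start in Ifng and 31 bases before it in Areg and in Il2, and 12.4% of 32851 promoters hold it somewhere in this window. GGAAA occurs in all 11 promoters listed for 8 of the 9 members (all but Il10), and in 55.6% of all promoters. TTCNNNGAA occurs in that of Ifng (7.02% of all) and TGANTCA in 1 of 3 Il16 promoters (6.75% of all). GGTGTGA was in none of the 11 (3.33% of all). No matches overlapped in the 3 promoters shown. A match is a run of letters in this window and not a measured binding site.

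Il2, Il10, Il21 and Csf2, the cytokines of newly activated or helper-like T cells, were at the low end of the table. Il2 was at 1.39, 3.02, 0 and 0.842 TPM in KO 1 to 4 and at 1.63, 0.900, 1.39 and 0.787 in WT 6 to 9. These are 0 to 10 units of the deposited score, and KO 3, listed at 0, had the highest Ifng level. The log2 difference was -0.07 (SE 0.43, 95% interval -1.02 to 0.89, limma adjusted p = 0.979). Il10 was at 5.89, 0.302, 4.19 and 0.421 TPM in KO and at 0, 0, 3.47 and 0.787 in WT libraries, and KO 1, KO 3 and WT 8 carried nearly all of it. Il21, which lies 0.0968 Mb from Il2 on chromosome 3, was listed at 0 in 6 libraries and at 0.450 and 1.04 TPM in WT 7 and WT 8. Csf2 was listed at 0 in 7 libraries and at 0.693 TPM in KO 1. Il10, Il21 and Csf2 did not reach 1 TPM in 4 libraries and were not in the fit across genes. Their two-sided exact permutation p, unadjusted, was 0.286, 0.429 and 1. Since the number of reads per library is not given in the sources used here, a listed 0 does not show that a transcript was absent.

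Areg (chromosome 5, 91139599 to 91148432) had the smallest p of the members. It was at 31.5, 5.44, 3.89 and 4.63 TPM in KO 1 to 4, and at 0, 0, 0.695 and 2.75 TPM in WT 6 to 9. Every KO library was above every WT library, KO 1 stood far above the rest, and the margin between KO 3 and WT 9 was narrow. The log2 difference was 2.46 (SE 0.66, 95% interval 0.98 to 3.94), with limma unadjusted p = 0.00436 and adjusted p = 0.395. Without KO 1 it was 1.82, and with a pseudocount of 5 it was 1.22. Areg passed the filter on low values through all 4 KO libraries and WT 9, so its place in the fit rests mostly on the group where it is high. Groups did not overlap, with KO higher, in 2.62% of all genes tested, and in either direction in 5.02%.

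KO 1 also had 16.3 TPM of the B cell gene Cd79b and 1184 TPM of the haemoglobin gene Hba-a1. Hba-a1 was at 931 TPM in KO 4, where Areg was at 4.63. Mast cell and basophil markers, cells that can make AREG, summed to 3.12 TPM in KO 1 and to 0.813 to 10.1 elsewhere, with Fcer1a, Prss34 and Gata2 listed at 0 in all 8 libraries. Foxp3, the regulatory T cell factor, was at 3.47 TPM in KO 1 and 2.03 to 7.56 elsewhere. The source of the Areg transcripts was not tested. Among the other EGF receptor ligands, Hbegf was at 1.39, 2.72, 1.20 and 2.95 TPM in KO 1 to 4 and at 0, 0.450, 0.347 and 0 in WT 6 to 9 (log2 difference 1.32, SE 0.32, limma adjusted p = 0.395). Like Areg it passed the filter through the group where it is high, here the 4 KO libraries alone, so its direction was nearly set by the filter. Ereg and Epgn were listed at 0 in all libraries, and Tgfa, Egf and Btc did not reach the filter. Adam17, the protease that sheds AREG, had 42.8 ± 9.22 and 31.8 ± 6.13 TPM in KO and WT (SD, n = 4; limma adjusted p = 0.590). Of the 9 genes of this list 4 were tested and 0 passed, and for Areg and Hbegf the filter bears on the sign. Egfr itself was listed at 0 in all libraries but KO 3.

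Il16 (chromosome 7, 83642825 to 83745726) was the steadiest member. It was at 87.0, 83.1, 76.6 and 59.3 TPM in KO 1 to 4 and at 129, 93.1, 87.9 and 104 TPM in WT 6 to 9. Every KO library was below every WT library, by less than 1 TPM between KO 1 and WT 8, and groups were apart in this direction for 2.40% of all genes tested. The log2 difference was -0.43 (SE 0.17, 95% interval -0.82 to -0.04, limma adjusted p = 0.524). It was -0.19 with the mean of the myeloid list as a covariate, -0.25 without WT 6 and WT 9, -0.26 without KO 3 and KO 4, and -0.09 without all 4. Divided by the T cell genes, Il16 was 7.58 to 10.6 per 100 in KO and 8.37 to 17.1 in WT libraries, and the groups overlapped. Cd4, the gene of its receptor, had 4.50, 4.84, 66.7 and 15.6 TPM in KO 1 to 4, all above the 1.22, 2.25, 0.695 and 0.393 TPM of WT 6 to 9 (log2 difference 2.76, limma adjusted p = 0.395). Groups were apart with KO higher for 2.62% of all genes tested. Cd4 passed the filter on low values mostly through the KO libraries, with WT 6 and WT 7 also at 1 TPM or more.

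Csf1 (chromosome 3, 107741048 to 107760469) split the WT libraries. It was at 9.70, 15.1, 18.8 and 24.0 TPM in KO 1 to 4 and at 10.6, 50.4, 32.6 and 6.69 TPM in WT 6 to 9. The highest and the lowest values were both WT, and KO libraries lay between them. The log2 difference was -0.21 (SE 0.57, 95% interval -1.49 to 1.07, limma adjusted p = 0.938). Without WT 6 and WT 9 it was -1.28 (limma unadjusted p = 0.00816, adjusted p = 0.397), and without WT 7 it was 0.25. WT 6 and WT 9 held the lowest WT values and WT 7 the highest, so leaving them out moves the difference by itself. Without WT 6 and WT 9, 402 genes were higher and 631 lower at an unadjusted limma p under 0.05, against 645 and 329 with all libraries. Csf1r, the receptor gene of Csf1 and a macrophage gene, was at 6.93, 0.302, 38.9 and 109 TPM in KO 1 to 4 and at 0 to 5.51 in WT libraries.

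Spp1 (chromosome 5, 104435118 to 104441050) had the widest range. It was at 13.2, 21.5, 131 and 694 TPM in KO 1 to 4 and at 0.813, 18.9, 35.4 and 10.2 TPM in WT 6 to 9. KO 3 and KO 4, the libraries with summed myeloid markers of 5278 and 8443 TPM, were the highest, while KO 1 and KO 2 lay within the WT range. The log2 difference was 2.74 (SE 1.27, 95% interval -0.12 to 5.60, limma adjusted p = 0.561). It was 0.70 without KO 3 and KO 4, 0.04 with the myeloid list mean as a covariate, and -0.59 without KO 3, KO 4, WT 6 and WT 9. The same covariate gave 2.27 for Ifng, 3.01 for Areg, -0.19 for Il16, -0.55 for Csf1 and 0.63 for Il2. The source of the Spp1 transcripts in KO 3 and KO 4 was not tested.

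**Figure D3:**
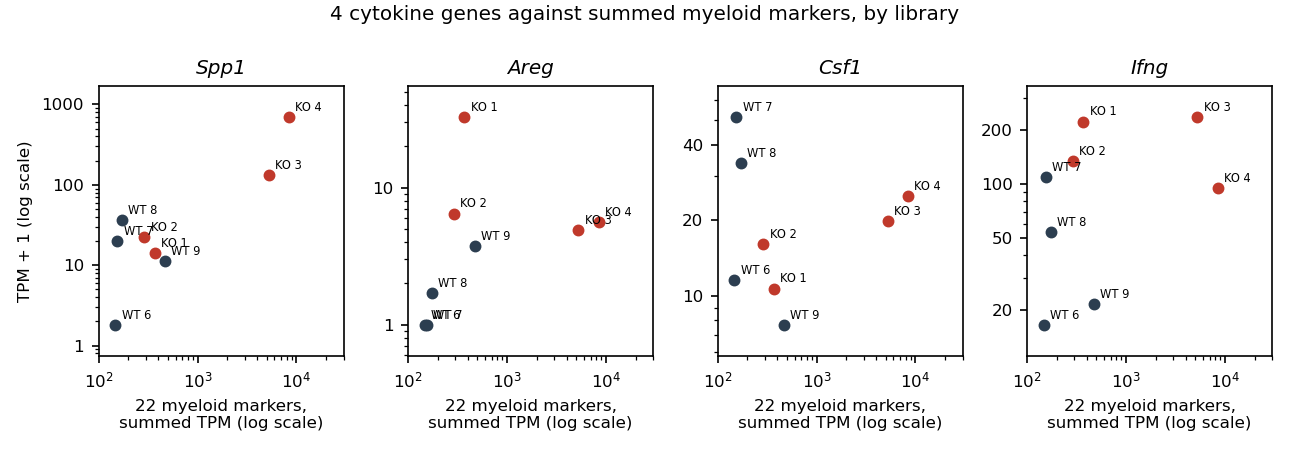
TPM + 1 of Spp1, Areg, Csf1 and Ifng (y, log scale) against the summed TPM of 22 myeloid markers (x, log scale) in each KO (red) and WT (dark) library. Spp1 is highest in KO 3 and KO 4, where the markers sum to 5278 and 8443 TPM, while Areg is highest in KO 1, Csf1 in WT 7 and Ifng in KO 3 and KO 1.

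**Figure D4:**
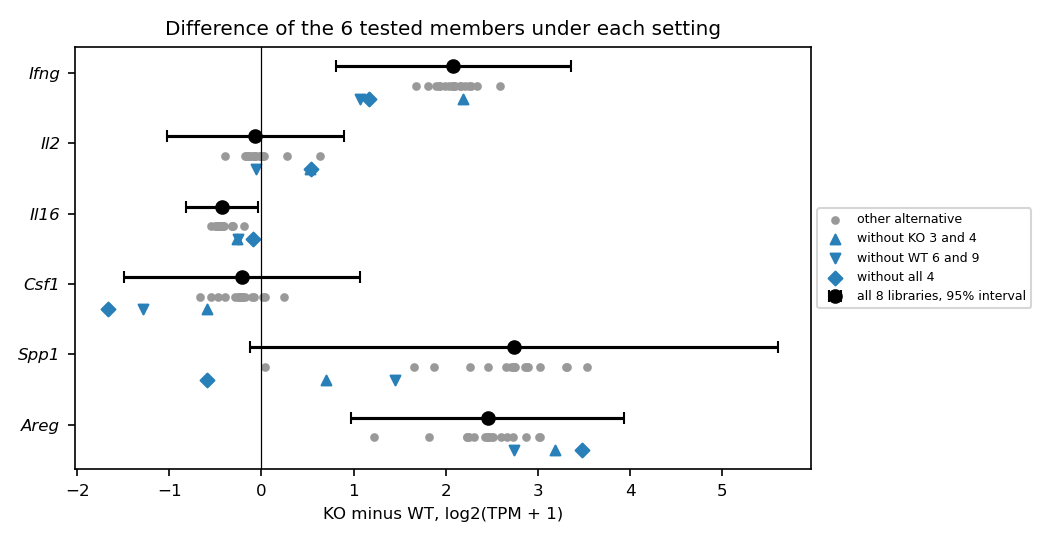
KO minus WT on the log2(TPM + 1) scale for the 6 tested members: all 8 libraries with the 95% interval (black), 3 settings that leave out library pairs (blue) and the other alternatives (grey). Ifng and Areg stay above 0 and Il16 below 0 in every setting drawn, while Il2, Csf1 and Spp1 lie on both sides.

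As listed, with the division by length unknown, the order of mean values in KO libraries was Spp1 (215 ± 324 TPM), Ifng (171 ± 67.9), Il16 (76.5 ± 12.2), Csf1 (16.9 ± 6.03), Areg (11.4 ± 13.5), Il10 (2.70 ± 2.79) and Il2 (1.31 ± 1.27), with Csf2 and Il21 last (SD, n = 4). Spp1 was first only in KO 4, at 694 TPM, and Ifng was first in KO 1, KO 2 and KO 3. In WT libraries Il16 was first by mean (104 ± 18.4 TPM), then Ifng (49.1 ± 42.4), Csf1 (25.1 ± 20.4) and Spp1 (16.3 ± 14.7), with the rest at 1.18 TPM or less. Il16 ranked above Ifng in WT 6, 8 and 9, and Ifng above Il16 in all 4 KO libraries and WT 7. In KO the libraries of Ifng and Il16, and those of Il16 and Csf1, did not overlap, and all other neighbours in both orders did.

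Genes induced by interferon gamma had mostly positive differences, 21 of 24 tested, with a median of 0.37, where 55.2% of all genes tested were positive and the median was 0.04. None of the 24 passed over all genes, 7 were higher at an unadjusted p under 0.05 and none lower. Over all genes tested, 6.01% were higher and 3.07% lower at that p, and 2.62% had groups apart with KO higher. Gbp2, a guanylate-binding protein, was at 286, 159, 321 and 292 TPM in KO 1 to 4 and at 114, 96.7, 169 and 79.8 TPM in WT 6 to 9 (log2 difference 1.20, SE 0.28, limma adjusted p = 0.350). WT 8 was the only WT library above a KO library. Cd274 had 58.8 ± 12.8 and 31.2 ± 10.02 TPM in KO and WT, and Irf1, a transcription factor of the same response, 309 ± 48.2 and 206 ± 39.3 (SD, n = 4), both with groups apart and limma adjusted p of 0.395 and 0.439. KO 1 to 4 had 3.81, 0, 10.2 and 9.68 TPM of Cxcl9, a chemokine gene of myeloid cells. All 4 WT libraries listed it at 0, and it was not in the fit. Of the 26 genes, 6 were highest in KO 3 and KO 4 and 9 lowest in WT 6 and WT 9, as were 14.2% and 17.3% of all genes tested. The list median was 0.35 without KO 3 and KO 4 and 0.24 without WT 6 and WT 9, where that of all genes tested was -0.02 and -0.05.

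Receptors of the members had a median difference of 0.71 over 19 tested genes, 16 positive, with 6 higher at an unadjusted p under 0.05 and 0 that passed. Over all genes tested, 55.2% were positive and 6.01% higher at that p. Of the 6, Csf1r passed the filter on low values through KO 1, KO 3, KO 4 and WT 9. Csf2rb passed it through the KO libraries and WT 6, and Cd4 through the KO libraries, WT 6 and WT 7. The filter therefore bears on the sign of these genes and on the counts. Of the 21 genes in the table, 10 were highest in KO 3 and KO 4, among them Csf1r, Csf2ra, Csf2rb and Csf2rb2. This pattern was found in 14.2% of all genes tested. Csf2rb was at 2.77, 2.72, 82.3 and 81.6 TPM in KO and at 0 to 3.25 in WT libraries. The list median was 0.05 without WT 6 and WT 9 and -0.06 without all 4, where that of all genes tested was -0.05 and -0.11. Itga4, an integrin chain that binds osteopontin, had 24.1 ± 8.24 and 12.4 ± 4.13 TPM (SD, n = 4; limma adjusted p = 0.472). Ifngr1 was at 1350, 1130, 760 and 705 TPM in KO and at 406, 1132, 1350 and 450 in WT libraries, low in the same WT 6 and WT 9 in which Ifng was low. Ifngr2 ran the other way within WT, at 25.2 and 34.6 TPM in WT 6 and WT 9 and at 5.40 and 6.95 in WT 7 and WT 8. In KO it was at 9.70 and 6.35 TPM in KO 1 and KO 2 and at 41.3 and 54.3 in KO 3 and KO 4.

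Of 15 JAK, STAT and feedback genes, 11 were positive (median 0.13, or 0.02 without WT 6 and WT 9), 2 were higher at an unadjusted p under 0.05 and 0 passed. These were Stat3, which carries IL-10 and IL-21 signals, with 233 ± 29.7 and 137 ± 38.0 TPM in KO and WT, and its feedback inhibitor Socs3, with 141 ± 21.6 and 90.2 ± 25.1 (SD, n = 4; limma adjusted p = 0.395 and 0.465, groups apart in both). Over all genes tested, 55.2% were positive, 6.01% were higher at that unadjusted p and 2.62% had groups apart with KO higher. Their median was 0.04, or -0.05 without WT 6 and WT 9. Cish, induced by IL-2 through STAT5, was at 346 and 321 TPM in WT 7 and WT 8, 59.3 and 58.6 in WT 6 and WT 9, and 106 to 162 in KO libraries. That is the same order of WT libraries as for Csf1.

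Among 34 transcription factors tested that act on cytokine genes, 26 were positive (median 0.29), 6 were higher and none lower at an unadjusted p under 0.05, and 0 passed. Over all genes tested, 55.2% were positive, and 6.01% were higher and 3.07% lower at that p. The list median was 0.05 without WT 6 and WT 9, where that of all genes tested was -0.05. Nr4a2, an orphan receptor induced by T cell receptor signals, was at 31.9, 22.7, 40.4 and 42.5 TPM in KO and at 3.25, 7.65, 6.95 and 9.05 in WT libraries (log2 difference 2.22, SE 0.31, limma adjusted p = 0.101). Irf4 had 25.2 ± 5.34 and 9.72 ± 6.22 TPM and Irf8 200 ± 166 and 34.5 ± 1.34 TPM (SD, n = 4; limma adjusted p = 0.395 and 0.429). For Irf8, a gene that myeloid cells express strongly, KO 3 and KO 4 had 411 and 247 TPM. Tbx21, the T-box factor that drives Ifng, was at 28.1, 123, 168 and 175 TPM in KO and at 67.5, 217, 182 and 14.2 in WT libraries (limma adjusted p = 0.933). KO 1, with 221 TPM of Ifng, had one of the lowest Tbx21 levels.

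Of 13 regulators of cytokine mRNA decay, 8 were positive (median 0.07, or -0.03 without WT 6 and WT 9), 1 was higher and 1 lower at an unadjusted p under 0.05, and 0 passed. The positive share was 61.5%, near the 55.2% of all genes tested, of which 6.01% were higher and 3.07% lower at that p. Without WT 6 and WT 9 the median of all genes tested was -0.05. Zfp36l2, a binder of AU-rich elements, was at 30.5, 35.4, 26.9 and 21.04 TPM in KO and at 43.5, 51.7, 62.5 and 42.5 in WT libraries (log2 difference -0.80, SE 0.20, limma adjusted p = 0.395). Every KO library was below every WT library, as for 2.40% of all genes tested. The Zfp36l2 paralog Zfp36 had 78.4 ± 17.2 and 55.3 ± 9.69 TPM and Zfp36l1 59.9 ± 6.09 and 71.3 ± 8.46 (SD, n = 4; limma adjusted p = 0.521 and 0.632).

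Of 38 other cytokine ligands, 32 were in the table and 17 were tested, 10 with positive differences (median 0.35). At an unadjusted p under 0.05, 4 were higher and 2 lower, and 0 passed. The positive share was 58.8%, near the 55.2% of all genes tested, of which 6.01% were higher and 3.07% lower at that p. Il1rn, the IL-1 receptor antagonist, was at 16.3, 1.21, 70.6 and 74.5 TPM in KO and at 0 to 2.70 in WT libraries, and Osm (oncostatin M) had 26.5 ± 17.2 and 6.54 ± 3.17 TPM (SD, n = 4; limma adjusted p = 0.412 and 0.395). Both were highest in KO 3 and KO 4. Il1rn passed the filter on low values through the KO libraries, WT 7 and WT 9, which bears on its sign. Ltb, lymphotoxin beta, was lower in every KO library, with 568 ± 116 and 925 ± 49.4 TPM (limma adjusted p = 0.328). Groups were apart in this direction for 2.40% of all genes tested. The list median was -0.32 without WT 6 and WT 9, where that of all genes tested was -0.05. Tnf, often made together with Ifng, was at 13.8 and 14.6 TPM in WT 6 and WT 9, 58.0 and 43.4 in WT 7 and WT 8, and 30.1 to 54.4 in KO libraries. Il1a, Il13 and Il17a were listed at 0 in all 8 libraries.

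**Figure D5:**
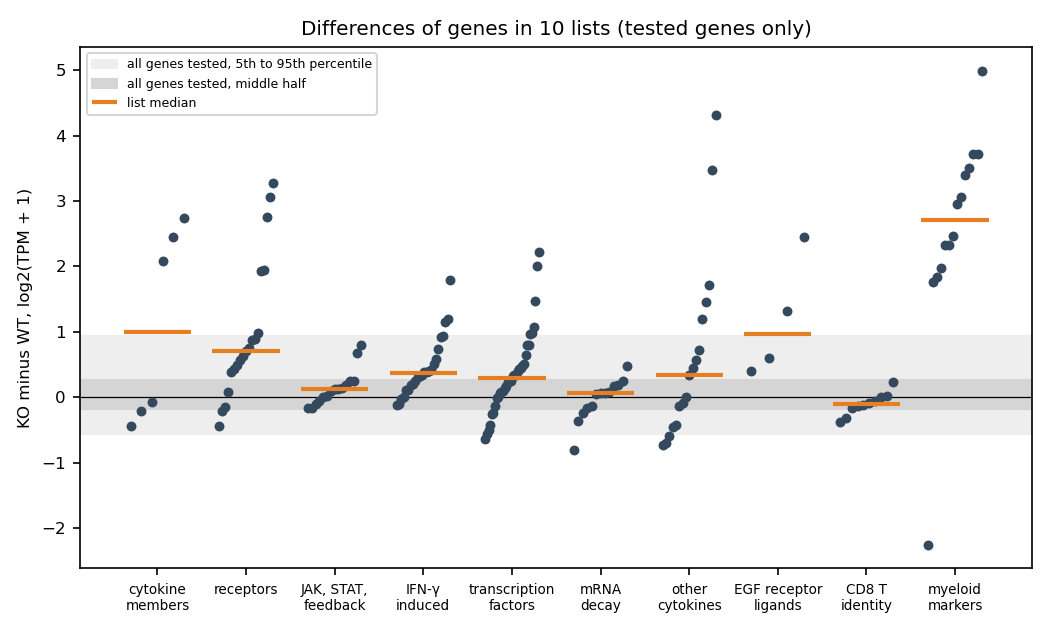
KO minus WT on the log2(TPM + 1) scale for the tested genes of 10 lists (points, sorted within a list) with the list median (orange) over the range of all genes tested (grey bands). The interferon gamma induced genes have a median of 0.37, the receptors 0.71 and the myeloid markers 2.71, beside 0.04 for all genes.

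The genes whose pattern over the 8 libraries was most like that of a member were found by Pearson correlation of log2(TPM + 1) among 10732 genes, given as a description. For Ifng they were Cd274 (0.98), Irf4 (0.97) and Atf4 (0.97). For Il16 they were Actn2, Ccm2 and Ipcef1 (0.96 each), for Csf1 Abr (0.98), Ect2 (0.98) and Cep89 (0.98), for Spp1 Xpnpep1 (0.99), Tmem168 (0.98) and Snx2 (0.98), and for Areg Akt2 (0.95), Fam76b (0.93) and Zfp456 (0.93). With 8 points and this many genes searched, values of this height came up for all 5 members searched, those with a mean of at least 5 TPM.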

How the data were processed

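The deposited table holds a score that the authors named a TPM-normalized count: whole numbers that are neither raw counts nor TPM. Per the submitters' processing notes, RSEM 1.3.3 and mm10 were used. Aligner, annotation, scaling step and read depth: not given in the sources used here, so counting error is unknown. After columns were scaled to 1000000, a score of 1 stood for 0.299 to 0.450 TPM. The test had been planned for TPM and was applied to these scaled values.

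The 10732 genes that reached 1 TPM in 4 or more libraries were compared on log2(TPM + 1), KO against WT, with limma 3.58.1 in R 4.3.3 (mean trend, group as the only term, Benjamini-Hochberg adjustment, threshold 0.05), which was tested on simulated data. The simulated noise was independent between genes, so that test does not cover patterns that many genes share. In the real libraries, 14.2% of genes tested were highest in KO 3 and KO 4 and 17.3% lowest in WT 6 and WT 9. The log2(TPM + 1) scale understates the change of low genes. Per the series' design text each genotype had 4 mice, and the spread behind a p-value is that between them. Tables were handled with Python 3.11.15 and pandas 2.3.3.

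The members and the 15 other gene lists were chosen with earlier results of these data known. Of 263 list entries, 252 matched a symbol. Named are the members, the 3 tested genes of smallest p per list, 3 genes most like each member of at least 5 TPM on average, and receptors, induced genes and regulators that a member's description turns on. Others, such as Tnf, Tbx21, Cish and Foxp3, were chosen after their values were seen. One list gene is not reported here. Coordinates are from GENCODE M21 (mm10), 1-based. The 22 alternatives kept the tested genes fixed where libraries were left out.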

Additional observations from a re-analysis of the deposited data

Results flagged for a closer look

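Members and named genes were screened for a library far from the other 3 of its group, by the gap to the nearest library as a share of the group's range. Of 120 groups from 61 genes, 10 were marked, where for normally distributed values chance marks about 1 in 20, or 6. Whether these untransformed values are so distributed was not checked, and a group with only 1 library above 0 is always marked. The 6 is therefore not a chance rate for these data. Among the members, the marked values were Areg at 31.5 TPM in KO 1 (others 3.89 to 5.44) and Csf2 at 0.693 TPM in KO 1 (others listed at 0). In KO 1, Cd79b was at 16.3 TPM (5.89 to 6.28). In KO 4, Fn1, a fibroblast matrix gene, was at 69.4 TPM (1.04 to 5.09) and the keratin gene Krt8 at 45.4 TPM (0 to 4.79). In WT 9, the platelet gene Pf4 was at 11.4 TPM and Fn1 at 1.18 TPM, both listed at 0 in the other WT libraries, Hba-a1 was at 456 TPM (3.25 to 44.5) and Zfp456 at 3.93 TPM (2.70 to 2.84). In WT 6, Irf8 was at 32.5 TPM (35.01 to 35.4), a narrow range.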

How the results depend on the processing

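No paired analysis was possible because KO mice carry the numbers 1 to 4 and WT mice 6 to 9. Of the members, 0 passed the adjusted threshold under any of the 22 alternatives. Ifng and Areg kept a positive and Il16 a negative difference in every alternative that gave a value. Ifng ranged from 1.07 to 2.59 (1.68 to 2.59 with 1 library left out), with an unadjusted p under 0.05 in all 22, and Il16 had one in 12. The number of genes called was 2 to 5 with 1 library left out and 6 without KO 3, KO 4, WT 6 and WT 9. Directions reversed for 3 members that did not pass, and the cause was not tested. Il2 became 0.013 with a pseudocount of 5, 0.63 with the myeloid covariate, 0.53 without KO 3 and KO 4 and 0.54 without all 4, and ran from -0.39 to 0.28 with 1 library left out. Csf1 ran from -0.67 to 0.25 with 1 library left out, against -0.21 with all libraries. It was -1.28 without WT 6 and WT 9 and -1.66 without all 4 (limma unadjusted p = 0.00118, adjusted p = 0.162). WT 6 and WT 9 held the lowest WT values of Csf1 and KO 3 and KO 4 the highest KO values, so leaving them out lowers the difference. Genes lower at an unadjusted limma p under 0.05 numbered 631 and 949 in these settings, against 329 with all libraries. Spp1 became -0.59 without all 4. Areg and Il2 fall below a filter of 5 TPM and have no value there. Scaling to the 5 T cell genes moved the median of all genes to 0.15, against 0.04, and Ifng was then 2.21. The settings that leave out pairs of libraries were chosen with earlier results known. Below about 1 TPM, values rest on a few units of the deposited score, and differences in Il2, Il10, Il21 and Csf2 were not detectable.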

Other observations

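Markers of other cells a sort could hold were summed per library. Among all genes tested, 55.2% were positive, and at an unadjusted p under 0.05, 6.01% were higher and 3.07% lower in KO. Their median was 0.04, or -0.05 without WT 6 and WT 9, -0.02 without KO 3 and KO 4 and -0.11 without these 4. Some list genes passed the filter mostly through KO libraries, which bears on their sign. Ncr1, for example, did so through KO 1, KO 3, KO 4 and WT 9. Natural killer cell markers had 11 of 11 tested genes positive (median 1.37), 7 of them higher at an unadjusted p under 0.05 and 0 passing over all genes, and summed to between 238 and 2684 TPM in KO against 82.6 to 114 in WT. Tyrobp and Fcer1g, which myeloid cells share, made up most of the sum in every KO library and in WT 7 and WT 9. CD4 and regulatory T cell markers had 8 of 10 positive (median 0.56), with 1, Cd4, higher at an unadjusted p under 0.05. Without WT 6 and WT 9 it was 5 of 10 and a median of -0.02. B cell markers had 0 of 3 positive (median -0.90), 1 of them lower at an unadjusted p under 0.05. Without WT 6 and WT 9 the direction turned, with 2 of 3 positive and a median of 0.04, or 0.36 without KO 3 and KO 4 as well. Platelet and erythroid markers had 3 of 3 positive (median 1.17) and stromal and epithelial markers 3 of 4 (median 1.49). The CD8 identity list had 3 of 10 positive (median -0.10), with Cd8b1 at 1183 ± 134 TPM in KO and 1538 ± 180 in WT (SD, n = 4; limma adjusted p = 0.502). The myeloid list had 13 of 14 tested genes positive (median 2.71), 9 higher and 1, Apoe, lower at an unadjusted p under 0.05. Without KO 3 and KO 4 the median was 0.71 for the myeloid, 0.86 for the natural killer and 0.45 for the stromal list. The only tested mast cell and basophil marker, Hdc, differed by 0.76 (limma adjusted p = 0.541), and passed the filter through the 4 KO libraries and WT 8. In each of these lists 0 genes passed.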
